A study of Mus musculus with 6 samples.

Results

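Fatty acid oxidation in mitochondria and peroxisomes was followed through 35 genes, listed by the role of their enzymes. All 35 were found by symbol among the 19323 genes of the table, and 34 passed the filter on low values, a mean of at least 10 normalized counts over all libraries. RNA came from CD8+ T cells of the spleen of wild-type C57BL/6 mice, which were 6 weeks old when a diet labelled ND or MCDHFD began and were fed it for 7 weeks. There were 3 libraries per diet, and neither group carried a deletion or a transgene. The labels call the mice MASH models (MASH is fatty liver with inflammation) and spell out neither diet. Nothing in the labels says that each library is a different mouse, so every p-value reflects the spread among these 6 libraries alone, which may be technical.

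The libraries held between 14119816 and 14752121 normalized counts, and log2 values correlated at 0.985 to 0.988 within a diet and at 0.896 to 0.916 between diets. The T cell markers Cd8a and Cd3e were present in all 6 libraries, at 13784 ± 350.4 and 3670.4 ± 177 normalized counts in ND and at 5264 ± 458 and 1840.3 ± 140.1 in MCDHFD (mean ± SD, n = 3). All 22 genes of a CD8 T cell identity list were lower in MCDHFD, and their summed share of counts went from 1.05–1.07% to 0.521–0.594%. Of 28 tested monocyte and macrophage genes, 24 were higher and 3 lower, and the share of that list went from 0.480–0.576% to 2.28–2.77%. Its most abundant genes were Hmox1, the heme oxygenase (10278 ± 1326 to 63016 ± 8499), the adhesion molecule Vcam1 (12596 ± 1164 to 56721 ± 5802) and Apoe, an apolipoprotein (2710 ± 392 to 42408 ± 4889). Erythroid genes (18 of 18 higher, from 0.0302–0.0321% to 0.129–0.202%) and neutrophil genes (15 of 17 higher, from 0.0133–0.0186% to 0.0876–0.146%) were higher too. B cell genes (13 of 15 lower, 1 higher), dendritic cell genes (12 of 14 lower), NK cell genes (4 of 7 lower, 2 higher) and CD4 T cell genes (5 of 7 lower, 1 higher) were mostly lower, and plasma cell genes mostly higher (6 of 10, with 1 lower). The summed share of the NK list still went up, from 0.0177–0.0193% to 0.0377–0.0477%. Its 2 higher genes were Tyrobp (670 ± 24.2 to 2363 ± 322) and Fcer1g (734 ± 125 to 3573 ± 553). Ighm, the most abundant B cell gene, was higher (12576 ± 240 to 16685 ± 1225), and the share of the B cell list went from 0.148–0.164% to 0.125–0.143%. No marker of these lists was at 0 in all ND libraries, and only Cd209a, of the dendritic cell list, was at 0 in all MCDHFD libraries. In bulk RNA, fewer cells of a type and less RNA per cell cannot be told apart. The part of these other cells in the results below was not tested.

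Fatty acids enter oxidation as acyl-CoA, made by acyl-CoA synthetases. Long chains reach the mitochondrial matrix as carnitine esters, and a cycle of dehydrogenation, hydration, a further dehydrogenation and thiolysis then releases acetyl-CoA and passes electrons to the respiratory chain through the electron transfer flavoprotein. Peroxisomes run a parallel cycle with oxidases in place of dehydrogenases, act on very long and branched chains, and hand the shortened products on. In CD8 T cells the mitochondrial pathway is known for its place in memory cells and in quiescence, and in macrophages for its place in lipid-handling states.

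The acyl-CoA synthetases were all higher after MCDHFD (4 of 4), as were 3 of 6 carnitine genes, 3 of 7 acyl-CoA dehydrogenases and 4 of 5 of the later mitochondrial enzymes, and the peroxisomal core was split. Of the 34 tested members, 18 rose (52.9%) and 5 fell (14.7%) at an adjusted p under 0.05 in limma, where 30.3% of all 13430 tested genes were higher and 28.1% lower (58.4% in either direction). The median log2 fold change of the members was 0.26, against 0.0038 for all tested genes. Crat (2.88-fold), Acsl1 (2.49-fold), Eci2 (2.10-fold) and Cpt1a (2.05-fold) rose most. Acad11 fell to 0.515, Acaa1a to 0.577 and Acad10 to 0.619 of the ND level. The diets did not overlap in 23 of the 34 tested members, and in 65.4% of all tested genes. Fold changes are on the scale of log2 of the normalized count plus 1, which understates the change of low genes.

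**Figure D1:**
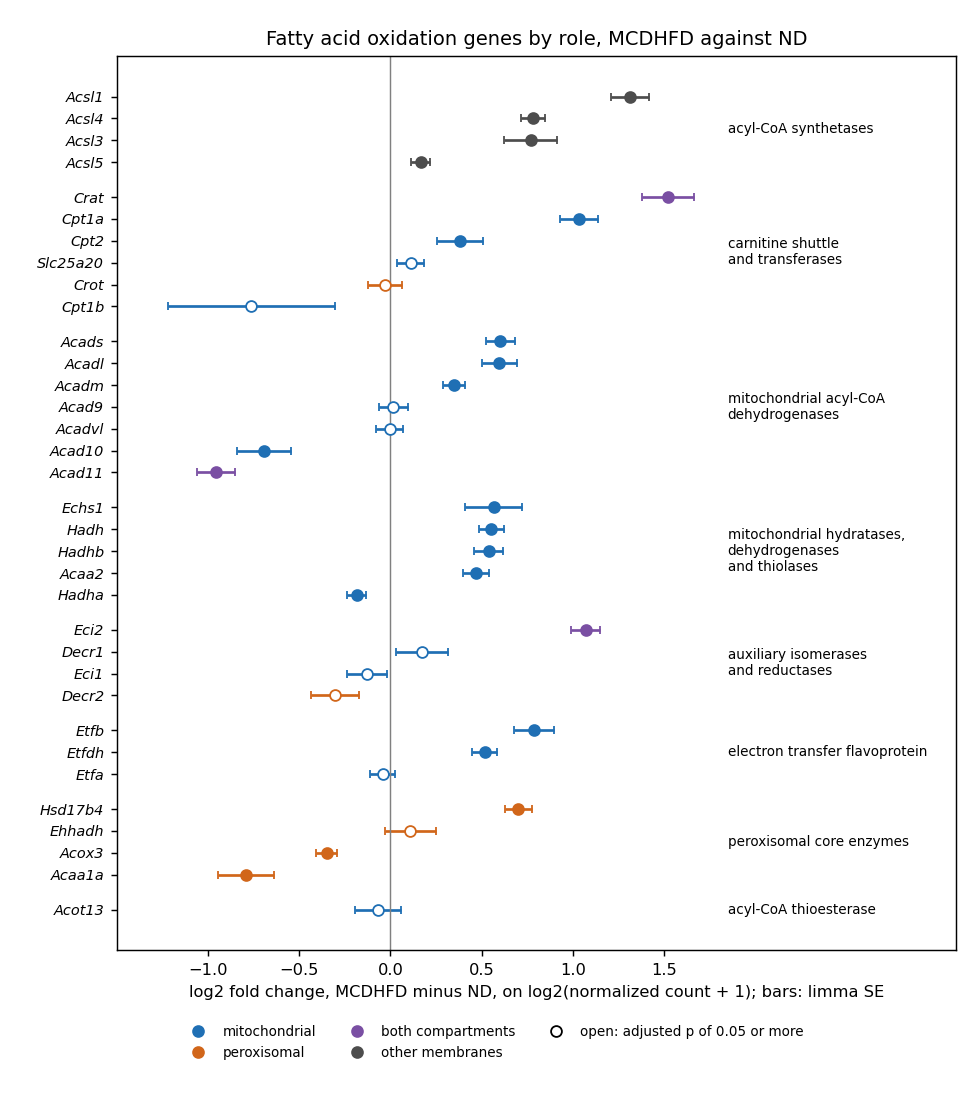
Log2 fold change of each of the 34 tested members, MCDHFD minus ND, with limma SE as bars (n = 3 libraries per diet), grouped by role. Colours give the compartment, filled points are past an adjusted p of 0.05 and open points are not: 18 lie higher and 5 lower, and the 5 lower points move to the positive side when the CD8 T cell identity genes are held equal.

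Every direction in this account holds for the scaling that the authors deposited. When the mean of the CD8 T cell identity genes was held equal in all libraries, the median over all genes tested became 1.02 in place of 0.0038 (log2), and 83.2% of genes were higher and 3.41% lower. Under that scaling 30 of the 34 members were higher and none lower. Acad10, Acad11, Acaa1a and Cpt1b, at 0.32, 0.058, 0.22 and 0.25, did not pass the test under it, while Hadha (0.83) and Acox3 (0.66), which fell under the deposited scaling, were higher. With 26 genes of general mitochondrial content held equal instead, 16 members were higher and 7 lower, against 23.0% and 38.7% of all genes. Both scalings add 1 constant to every log2 fold change, so the order of the genes and the distance of 0.26 between the median of the members and that of all genes are fixed by construction.

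**Figure D2:**
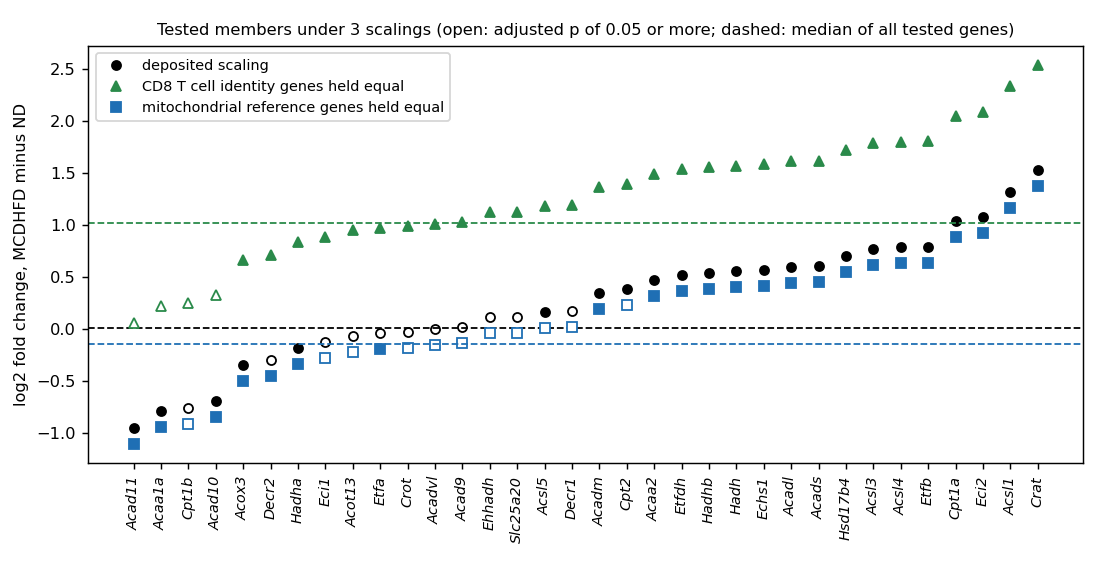
Log2 fold change of the 34 tested members, ordered by their value under the deposited scaling, under that scaling (circles), with the CD8 T cell identity genes held equal (triangles) and with the mitochondrial reference genes held equal (squares). Dashed lines give the median of all tested genes, at 0.0038, 1.02 and -0.15, and the order of the members is the same by construction.

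The acyl-CoA synthetases activate long-chain fatty acids at the endoplasmic reticulum and the outer mitochondrial membrane. They rose in 4 of 4, beside 30.3% of all tested genes, with log2 fold changes from 0.17 to 1.32. Acsl1 (ENSMUSG00000018796, protein-coding, mm10 chromosome 8, 46471037 to 46536051, plus strand), the isoform often tied to oxidation in fat and heart and to inflammatory macrophages, stood at 196, 248 and 241 normalized counts in ND and at 549, 563 and 587 in MCDHFD. The lowest MCDHFD library was thus far above the highest ND library (log2 fold change 1.32, SE 0.10, limma adjusted p = 9.70e-06). Acsl4, which prefers arachidonic acid and supplies the phospholipids oxidised in ferroptosis, was at 953, 876 and 829 in ND and at 1518, 1542 and 1511 in MCDHFD. The SD of the MCDHFD libraries was 16.2 counts, and the diets did not overlap (log2 fold change 0.78, SE 0.06, limma adjusted p = 1.22e-05). Acsl3, a synthetase of lipid droplets, was at 121, 142 and 167 in ND and at 268, 214 and 251 in MCDHFD, again without overlap (0.77, SE 0.15, limma adjusted p = 0.0018). Acsl3 shares exon sequence on the same strand with Utp14b, which was lower (-0.65), so reads of the shared exons cannot be assigned with certainty. Acsl5, the most abundant of the 4 per kilobase of mRNA, went from 1757 ± 19.95 to 1972 ± 84.5 (0.17, SE 0.05, limma adjusted p = 0.0248). The call of Acsl5 ended without any 1 of 5 libraries, all but MCDHFD replicate 1 (0.13 to 0.17, limma adjusted p = 0.0548 to 0.0933). It also ended under quantile scaling and in edgeR and DESeq2 on the recovered reads of 5 libraries. With the mitochondrial reference genes held equal Acsl5 did not pass either (0.011, limma adjusted p = 0.883). Exons of Acsl5 overlap on the opposite strand those of Zdhhc6, which was higher (0.47).

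The carnitine transferases and the carrier bring acyl groups across the membranes, and 3 of the 6 tested rose and none fell. Cpt1a (ENSMUSG00000024900, protein-coding, mm10 chromosome 19, 3322334 to 3385733, plus strand), the outer-membrane transferase whose inhibition by malonyl-CoA sets the rate of entry, was at 1662, 2097 and 2163 normalized counts in ND and at 4391, 3745 and 3949.5 in MCDHFD. All MCDHFD libraries lay well above all ND libraries (log2 fold change 1.04, SE 0.10, limma adjusted p = 3.86e-05). Per kilobase of mRNA Cpt1a went from the fifth to the first place among the 35 members. Cpt1b, the muscle form, was at 81.3, 84.6 and 76.2 in ND and at 24.5, 111 and 38.0 in MCDHFD. MCDHFD replicate 2 stood above every ND library and the other two below, and the gene did not pass (-0.76, SE 0.46, limma adjusted p = 0.185). Without that library it was lower (-1.37, limma adjusted p = 0.00202). Cpt1c, the neuronal form of the endoplasmic reticulum, was at 0, 0 and 1.98 in ND and at 7.53, 6.88 and 21.3 in MCDHFD, with a mean under the filter, so it was not tested.

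Slc25a20, the inner-membrane carnitine carrier, went from 450.0 ± 24.8 to 485 ± 10.2 normalized counts and did not pass (log2 fold change 0.11, limma adjusted p = 0.228). Cpt2, which returns the acyl group to CoA in the matrix, went from 114 ± 7.82 to 149 ± 11.4 (0.38, SE 0.13, limma adjusted p = 0.0274). The call of Cpt2 ended without ND replicate 2, MCDHFD replicate 2 or MCDHFD replicate 3 (0.32 to 0.39, limma adjusted p = 0.0595 to 0.0944). Cpt2 also did not pass under quantile scaling, in edgeR or in DESeq2. With the mitochondrial reference genes held equal it did not pass either (0.23, limma adjusted p = 0.157). Crat (ENSMUSG00000026853, protein-coding, mm10 chromosome 2, 30400471 to 30415813, minus strand), which moves acetyl groups between CoA and carnitine in mitochondria and peroxisomes, showed the largest rise of all tested members. It was at 131, 145 and 172 in ND and at 360.5, 466 and 469.8 in MCDHFD, and again no MCDHFD library came near the ND range (1.52, SE 0.14, limma adjusted p = 2.51e-05). Exons of Crat overlap on the opposite strand those of Dolpp1, which was at 232 ± 17.2 in ND and 178 ± 63.4 in MCDHFD and did not pass. Crot, the peroxisomal transferase of medium chains, was at 636 ± 60.7 and 623 ± 51.6 (-0.028, limma adjusted p = 0.817).

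**Figure D3:**
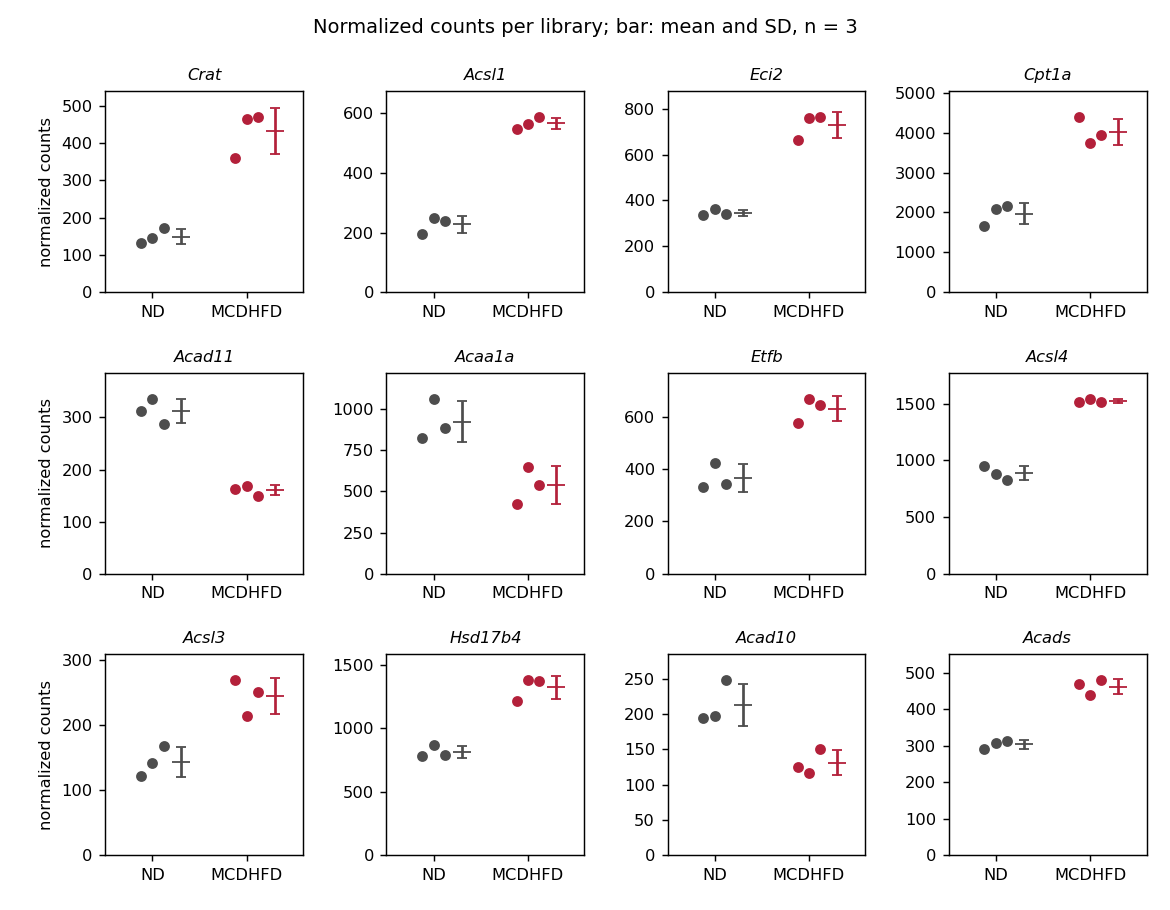
Normalized counts in each library (points) with mean and SD (n = 3) for the 12 members with the largest absolute log2 fold change among those past the threshold, from Crat to Acads, on axes that start at 0. The diets do not overlap in any of these 12, and Acad11, Acaa1a and Acad10 are the 3 that lie lower in MCDHFD under the deposited scaling.

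Of the 7 acyl-CoA dehydrogenases, which carry out the first step of each mitochondrial cycle, 3 rose (42.9%) and 2 fell (28.6%). Among all tested genes 30.3% were higher and 28.1% lower. Acadl, for long chains, was at 653, 734 and 798 normalized counts in ND and at 986, 1185 and 1136 in MCDHFD (log2 fold change 0.60, SE 0.10, limma adjusted p = 0.000656). Acads, for short chains, was at 291, 307 and 314 and at 469, 438 and 479 (0.60, SE 0.08, limma adjusted p = 0.000207). Neither gene had an MCDHFD library within the ND range. Acadm, for medium chains, rose by less, from 778 ± 36.6 to 990.1 ± 14.1 (0.35, limma adjusted p = 0.0011). Acadvl, for very long chains and the most abundant dehydrogenase in ND per kilobase of mRNA, was at 1029 ± 83.3 and 1025 ± 43.1 (-0.0037, limma adjusted p = 0.9698). Exons of Acadvl overlap on the opposite strand those of Dvl2, which was lower (-1.17). Acad9, best known as an assembly factor of respiratory complex I, was at 462 ± 33.8 and 466 ± 12.2 (0.015, limma adjusted p = 0.883).

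Acad10 and Acad11, dehydrogenases with an added kinase-like domain and roles that are less well defined, both fell under the deposited scaling and did not pass with the CD8 T cell identity genes held equal. Acad11 (ENSMUSG00000090150, protein-coding, mm10 chromosome 9, 104063377 to 104127725, plus strand) was at 313, 336 and 288 normalized counts in ND and at 162, 169 and 149.9 in MCDHFD (log2 fold change -0.96, SE 0.10, limma adjusted p = 6.37e-05). The highest MCDHFD library thus lay far below the lowest ND library. Acad10 was at 194, 197 and 247 and at 125, 117 and 151 (-0.69, SE 0.15, limma adjusted p = 0.00326). Acad12, a further gene of this family that is not among the 35, was lower as well, from 105 ± 16.7 to 35.5 ± 2.71 (-1.53, limma adjusted p = 0.000118), and it was lower under the other 2 scalings too (-0.51 and -1.68).

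The remaining steps of the mitochondrial spiral rose in 4 of 5 genes (80.0%, beside 30.3% of all tested genes). Hadh, the hydroxyacyl-CoA dehydrogenase of short chains, was at 442, 439 and 472 normalized counts in ND and at 667, 673 and 645 in MCDHFD, without overlap (log2 fold change 0.55, SE 0.07, limma adjusted p = 0.00013). Echs1, the short-chain hydratase, was at 385, 552 and 383 and at 659, 550.4 and 730.4, and here ND replicate 2 lay just above MCDHFD replicate 2 (0.57, SE 0.16, limma adjusted p = 0.0126). The call of Echs1 ended in edgeR on the recovered reads of 5 libraries (0.45, adjusted p = 0.0576). Exons of Echs1 overlap on the opposite strand those of Paox, which was higher (1.74). Acaa2, the mitochondrial thiolase that releases acetyl-CoA, went from 779 ± 64.4 to 1076 ± 22.4 (0.47, limma adjusted p = 0.000565).

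Hadha and Hadhb encode the alpha and beta subunits of the mitochondrial trifunctional protein, which performs the last 3 steps on long chains, and they went opposite ways under the deposited scaling. Hadha (ENSMUSG00000025745, protein-coding, mm10 chromosome 5, 30118304 to 30155162, minus strand) was at 1991, 2027 and 1928 normalized counts in ND and at 1704, 1779 and 1746 in MCDHFD, a small fall without overlap (log2 fold change -0.19, SE 0.05, limma adjusted p = 0.0116). Hadhb (ENSMUSG00000059447, protein-coding, mm10 chromosome 5, 30155248 to 30184593, plus strand) was at 278, 304 and 275 and at 416, 418 and 412 (0.54, SE 0.08, limma adjusted p = 0.000423). The ratio of Hadhb to Hadha within a library, in which a single factor per library cancels, was 0.1401, 0.1501 and 0.1432 in ND and 0.245, 0.235 and 0.236 in MCDHFD. Its rise by 1.65-fold exceeded the spread between libraries. An exact two-sided permutation test gave p = 0.1, the smallest that 3 against 3 libraries allow. With the CD8 T cell identity genes held equal both were higher, Hadhb (1.55) more than Hadha (0.83). Hadha and Hadhb were the only members whose annotated starts lay within 1000 bases of each other. They point away from one another with starts 86 bases apart in GENCODE, so the promoter window of Hadhb is shown, chr5:30155003-30155302 on the plus strand of GRCm38.p6 (the assembly of mm10), from RefSeq. Capitals mark the 85 bases that lie between the 2 starts.
Hadhb: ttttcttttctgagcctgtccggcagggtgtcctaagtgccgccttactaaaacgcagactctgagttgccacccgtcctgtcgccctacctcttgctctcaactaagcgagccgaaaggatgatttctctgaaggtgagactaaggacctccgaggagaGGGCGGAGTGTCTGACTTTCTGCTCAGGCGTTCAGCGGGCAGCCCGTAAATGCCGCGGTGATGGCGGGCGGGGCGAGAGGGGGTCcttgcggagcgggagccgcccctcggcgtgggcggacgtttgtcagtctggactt

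Etfa and Etfb form the flavoprotein that takes electrons from the acyl-CoA dehydrogenases, and Etfdh passes them to ubiquinone. Etfb was at 329.9, 425 and 342 normalized counts in ND and at 578, 668 and 645 in MCDHFD, without overlap (log2 fold change 0.79, SE 0.11, limma adjusted p = 0.00029). Etfdh was at 619.7, 623 and 615 and at 867, 837 and 959 (0.52, SE 0.07, limma adjusted p = 0.000231). Exons of Etfdh overlap on the opposite strand those of 4930579G24Rik, a gene at 87.5 ± 9.33 in ND that was lower in MCDHFD (-0.54). Etfa, the partner of Etfb, was at 610.0 ± 26.9 and 592 ± 27.5 and did not pass (-0.042, limma adjusted p = 0.63). With the mitochondrial reference genes held equal Etfa was lower (-0.20, limma adjusted p = 0.0398). Acot13, a thioesterase of mitochondria that splits acyl-CoA, was at 153 ± 6.90 and 146 ± 17.8 and did not pass either (-0.068, limma adjusted p = 0.67).

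The auxiliary enzymes prepare the double bonds of unsaturated chains for the cycle. Of these 4 genes 1 passed the test (25.0%), where 58.4% of all tested genes passed in either direction. Eci2 (ENSMUSG00000021417, protein-coding, mm10 chromosome 13, 34977748 to 35027096, minus strand), an enoyl-CoA isomerase of peroxisomes and mitochondria, was at 336, 361 and 340.5 normalized counts in ND and at 664, 758 and 763 in MCDHFD. No MCDHFD library came near the ND range (log2 fold change 1.07, SE 0.08, limma adjusted p = 6.94e-06). Eci1, the mitochondrial isomerase, was at 213 ± 19.6 and 194 ± 9.75 (-0.13, limma adjusted p = 0.341). The dienoyl-CoA reductases did not pass: mitochondrial Decr1 was at 144 ± 13.4 and 163 ± 24.4 (0.17, limma adjusted p = 0.327) and peroxisomal Decr2 at 175 ± 14.9 and 142 ± 16.7 (-0.30, limma adjusted p = 0.0782). The libraries of Decr2 did not overlap, and it was lower with the mitochondrial reference genes held equal (-0.46, limma adjusted p = 0.0143).

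In the peroxisomal core, Hsd17b4 and the other enzymes parted. Hsd17b4, the bifunctional protein that hydrates and dehydrogenates very long and branched chains, was at 782, 869 and 787 normalized counts in ND and at 1218, 1377 and 1371 in MCDHFD, without overlap (log2 fold change 0.70, SE 0.07, limma adjusted p = 5.04e-05). Ehhadh, the bifunctional enzyme of straight chains and dicarboxylic acids, was at 191 ± 19.95 and 207 ± 29.96 (0.11, limma adjusted p = 0.525). Acox3, an acyl-CoA oxidase of branched chains, was at 1316, 1374 and 1356 and at 1064, 1016 and 1094, lower without overlap under the deposited scaling (-0.35, SE 0.06, limma adjusted p = 0.000663) and higher with the CD8 T cell identity genes held equal. Acaa1a (ENSMUSG00000036138, protein-coding, mm10 chromosome 9, 119339676 to 119350299, plus strand), the peroxisomal thiolase, was at 822, 1061 and 887 and at 423, 651 and 540.3 (-0.79, SE 0.15, limma adjusted p = 0.00205). Under the deposited scaling it fell from the first to the fifteenth place among the members per kilobase of mRNA, from 524 ± 70.2 to 305 ± 64.7 normalized counts per kilobase. Acaa1b, its close copy, was lower as well (79.4 ± 8.96 to 44.7 ± 11.6, -0.84, limma adjusted p = 0.0121), and reads of the copies can be split between them, so both values are uncertain. Exons of Acaa1a also overlap on the opposite strand those of Myd88, which was higher (0.49).

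Taken by compartment, 11 of 21 mitochondrial members rose (52.4%) and 2 fell (9.52%), with a median log2 fold change of 0.35. Of the 6 peroxisomal members 1 rose (16.7%) and 2 fell (33.3%), with a median of -0.17. Among all tested genes 30.3% were higher and 28.1% lower, so the share of peroxisomal members that fell was near that of all genes. Of the 3 assigned to both compartments Crat and Eci2 rose and Acad11 fell. The peroxisomal median lay 0.51 below the mitochondrial one, and 0.38 below it when the genes of both compartments were counted as peroxisomal. The 6 peroxisomal members made up 25.97%, 25.23% and 24.23% of the summed normalized counts of both compartments in the ND libraries and 18.72%, 20.03% and 19.77% in the MCDHFD libraries. A single factor per library cancels in that share, and its diets did not overlap. It rests on few genes: the summed counts of the mitochondrial members went from 12175 ± 695 to 16054 ± 290.4, and those of the peroxisomal members from 4087 ± 199.1 to 3889.96 ± 147. Within the mitochondrial sum Cpt1a alone went from 1974 ± 272 to 4029 ± 331, and the share without Cpt1a was not computed. Genes of a list are not replicates, so no test was made over them.

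**Figure D4:**
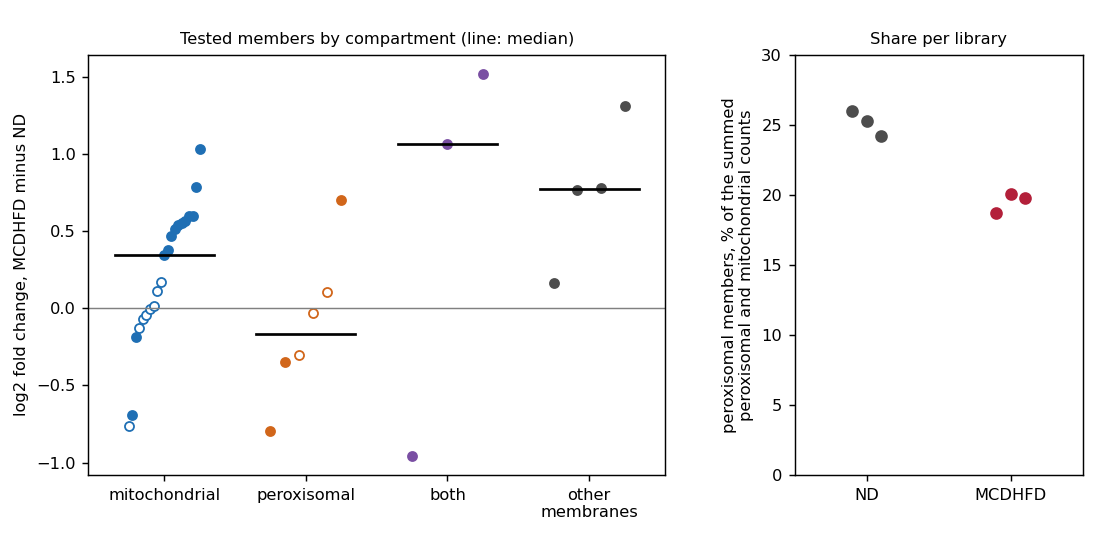
Left, log2 fold change (MCDHFD minus ND, deposited scaling) of the tested members by compartment, with the median as a line (0.35 for mitochondrial, -0.17 for peroxisomal members) and open points where the adjusted p is 0.05 or more. Right, the summed counts of the 6 peroxisomal members as a percentage of the mitochondrial and peroxisomal members together in each library, from 24.23% to 25.97% in ND and from 18.72% to 20.03% in MCDHFD.

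Ratios of enzymes within a library cancel a single scaling factor, and 12 pairs were compared. The diets did not overlap in 11 of the 12, and in 73.1% of all 561 pairs of tested members. Each of the 11 gave an exact two-sided permutation p = 0.1, the smallest possible, and 0.109 after adjustment over the 12 pairs. For the thiolases, the ratio of peroxisomal Acaa1a to mitochondrial Acaa2 was 1.17, 1.30 and 1.08 in ND and 0.3863, 0.6191 and 0.4999 in MCDHFD. For the enoyl-CoA isomerases, Eci2, of both compartments, over mitochondrial Eci1 was 1.75, 1.67 and 1.47 and then 3.24, 4.08 and 3.93. For the reductases, Decr2 over Decr1 was 1.147, 1.324 and 1.193 and then 1.07, 0.813 and 0.771. The first enzymes, Acox3 over Acadvl, stood at 1.36, 1.22 and 1.36 and then at 1.04, 1.04 and 1.03, and the transferases, Crot over Cpt2, at 5.89, 5.84 and 4.89 and then at 4.57, 3.82 and 4.12. Of the 5 pairs whose numerator is peroxisomal only and whose denominator is mitochondrial, 4 were lower without overlap. The exception was Ehhadh over Hadha, which overlapped (log2 change 0.29, exact permutation p = 0.3). Hsd17b4, the 1 peroxisomal member that rose, was the numerator of none of these pairs. Over Hadha, a pair added after its values were seen, it was 0.393, 0.429 and 0.408 in ND and 0.715, 0.774 and 0.785 in MCDHFD, higher without overlap (log2 change 0.89).

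Pairs within a compartment moved as well. Etfb over Etfa, the subunits of 1 protein, went from 0.555, 0.664 and 0.577 in ND to 1.02, 1.14 and 1.04 in MCDHFD, a rise of 1.78-fold. Acadl over Acadvl rose by 1.52-fold and Acsl1 over Acsl3 by 1.46-fold, while Acsl5 over Acsl4 went to 0.651 of its ND value. Cpt1b over Cpt1a went from 0.0357–0.0495 to 0.0058–0.0299. The log2 change of that ratio, -1.80, was -2.46 without MCDHFD replicate 2.

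**Figure D5:**
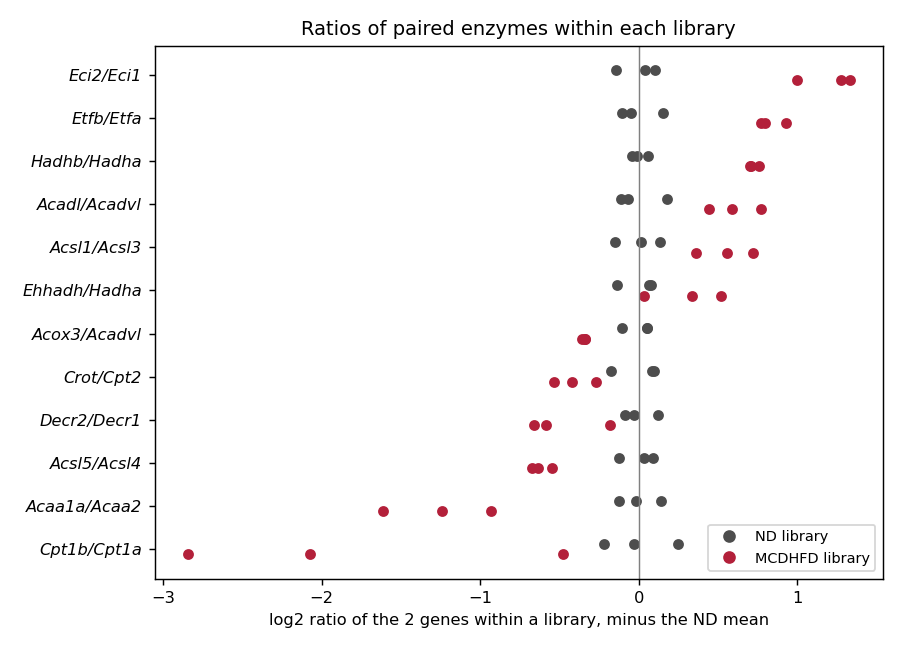
Log2 ratio of 2 genes within each library, minus the mean of the ND libraries, for 12 pairs ordered by the change; each point is 1 library. Eci2/Eci1, Etfb/Etfa, Hadhb/Hadha, Acadl/Acadvl and Acsl1/Acsl3 lie higher in all 3 MCDHFD libraries, 6 pairs lie lower in all 3, and Ehhadh/Hadha overlaps.

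By level per kilobase of the principal mRNA, the order of the members shifted between diets. In ND the 3 highest were Acaa1a (524 ± 70.2 normalized counts per kilobase), Acaa2 (514 ± 42.5) and Hadha (493 ± 12.5), which did not differ beyond their spread. In MCDHFD they were Cpt1a (933 ± 76.6), Acaa2 (709.9 ± 14.8) and Etfb (706 ± 52.6), where Cpt1a stood apart and the other two did not differ beyond their spread. Cpt1b (27.9 ± 1.46 in ND, 19.98 ± 16.1 in MCDHFD) and Cpt1c (0.236 ± 0.409 and 4.26 ± 2.91) were the lowest in both diets. Crat was among the low members in both, at 35.4 ± 4.94 and 102 ± 14.7.

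The neighbouring genes of the pathway moved in both directions. Of 19 tested further peroxisomal lipid enzymes and transporters, 8 rose (42.1%) and 5 fell (26.3%), with a median log2 fold change of 0.088, beside 30.3% and 28.1% of all tested genes. Abcd2, a transporter of very long acyl-CoA into peroxisomes, rose from 120 ± 13.5 to 424 ± 80.4 normalized counts (1.81), Acot4, a peroxisomal thioesterase, from 4.25 ± 1.499 to 40.3 ± 11.8 (2.97) and Pecr, an enoyl-CoA reductase, from 49.3 ± 4.87 to 121 ± 32.4 (1.25). Of 16 peroxins, which build peroxisomes, 7 rose (43.75%) and 1 fell (6.25%), with a median of 0.15. Pex11a, which promotes their division, rose from 12.4 ± 3.06 to 75.6 ± 9.76 (2.53), Pex11g (1.12) and the import factor Pex13 (0.99) rose, and Pex6, an ATPase of receptor recycling, fell from 1017 ± 74.6 to 329 ± 28.9 (-1.63). Pex6 was lower under the other 2 scalings too (-0.61 and -1.78). With the CD8 T cell identity genes held equal 18 of the 19 enzymes and transporters and 14 of the 16 peroxins were higher, and Pex6 alone was lower, beside 83.2% higher and 3.41% lower among all tested genes; with the mitochondrial references held equal, 7 and 7 were higher and 5 and 2 lower, beside 23.0% and 38.7%.

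Regulators of the pathway were mostly higher, with 10 of 17 tested up (58.8%, beside 30.3% of all tested genes) and 1 down (median log2 fold change 0.32). Of the 21 listed, Ppara, Ppargc1a, Prkaa2 and Pdk4 were absent or under the filter, so they were not tested. Rxra, the partner of the PPAR receptors on DNA, rose from 1006 ± 18.5 to 3499.5 ± 139 normalized counts (1.80, limma adjusted p = 9.09e-08). Pparg, a lipid-sensing nuclear receptor, rose from 194 ± 15.9 to 488 ± 68.3 (1.32). Acacb, which makes the malonyl-CoA that inhibits carnitine entry, rose from 56.5 ± 7.05 to 164 ± 5.81 (1.53), in the same libraries as Cpt1a. Ucp2, a mitochondrial carrier, rose from 8373 ± 417 to 14499 ± 1201 (0.79). Rxra, Pparg, Acacb and Ucp2 were higher under each scaling. The list counted 17 higher of 17 with the CD8 T cell identity genes held equal, where 83.2% of all genes were higher. With the mitochondrial references held equal it counted 6 higher and 2 lower, beside 23.0% and 38.7% of all genes.

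The promoters of the members were searched for letters bound by lipid-sensing receptors, in windows from 250 bases before to 50 after the RefSeq start. The table held 29 windows for 28 of the 35 members. AGGTCA, the core motif of nuclear receptors, was found on either strand in 5 of the 29 (17.2%), near the 16.3% of all 32851 windows. The members were Acadm, Cpt1a and Echs1, which rose, Acadvl, which did not pass, and Cpt1c. None of the 29 held 2 such motifs in the same direction 1 base apart, TCAAGGTCA (bound by the estrogen-related receptors) or TCACGTGA (bound by Tfeb), also searched on both strands, which were in 0.0396%, 0.423% and 0.974% of all windows. TCAAGGTCA contains the core motif. The stretches around the core motif (capitals, TGACCT where it lies on the opposite strand) are shown for 2 members that rose and for Acadvl, to let the contexts be compared. They lie at chr19:3323187-3323232 (Cpt1a, plus strand), chr7:140116479-140116524 (Echs1, minus strand) and chr11:70015490-70015535 (Acadvl, minus strand) of GRCm38.p6, each read along the gene's strand.
Cpt1a: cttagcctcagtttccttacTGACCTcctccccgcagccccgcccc
Echs1: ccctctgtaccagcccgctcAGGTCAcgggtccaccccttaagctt
Acadvl: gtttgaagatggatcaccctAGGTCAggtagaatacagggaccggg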

How the data were processed

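The members and all gene lists were chosen with earlier results of these data known. The deposited values are a signal: read counts that the authors divided by a factor per library, with mm10 as build per the submitters' processing notes. Aligner, counter, annotation and strand setting: not given in the sources used here. Reads of overlapping genes on opposite strands therefore cannot be told apart. Per the labels' protocols, RNA was extracted with TRIzol and the library kit was for whole RNA or for mRNA, without saying which library had which kit. Symbols were matched for 19202 of 19323 identifiers; coordinates and mRNA lengths are those of GENCODE M21.

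The main test was limma 3.58.1 (R 4.3.3, intensity trend, diet as the only term) on log2 of the value plus 1, over 13430 genes with a mean of at least 10, with Benjamini-Hochberg adjustment over all of them at 0.05. Divided by what 1 read is worth in a library, 100% of values came out whole (tolerance 0.01) in each library. The totals were 13188812 to 15482458 reads in the 5 libraries used for edgeR 4.0.16 and DESeq2 1.42.0; ND replicate 3, whose step lies near 1, was left out there. Same-diet pairs among the 5 differed by more than sampling noise (chi-square over degrees of freedom, 6.46 to 12.3). Ratios used exact permutation tests over 20 arrangements. Levels per kilobase divide by the length of the principal transcript. Replicate numbers were not taken as pairs.

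Values in every library are given for members without overlap and an absolute log2 fold change of at least 0.5 and for those that fell, with Echs1 and forms of Cpt1 added after their values were seen. Up to 4 passing genes per neighbouring list, by size of change, were eligible to be named. Tested on simulated counts for this comparison (13430 genes, 200 changed, dispersion 0.0121), the fit called 70% of the 1.5-fold changes, 90% of the 2-fold, 100% of the 4-fold and 98% of the 8-fold ones, and 4 of 13230 unchanged genes. That simulation changed few genes and gave all of them 1 dispersion. In the data 58.4% of tested genes passed, so these shares need not hold there. Some genes of neighbouring pathways are not reported here.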

Additional observations from a re-analysis of the deposited data

How the results depend on the processing

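Of the 34 tested members, 18 were higher and 5 lower, and leaving out each library in turn gave 16 to 18 higher and 5 or 6 lower. Other pseudocounts and filters, TMM scaling and library quality weights gave the same counts, except that Cpt1c passed as higher without a filter (log2 fold change 2.99, limma adjusted p = 0.00385), its ND values being at most 2 reads. Quantile scaling gave 16 higher and 6 lower, edgeR 15 and 5, DESeq2 16 and 5, and an adjusted p under 0.01 gave 15 and 4. With the replicate number as a block the counts were 18 and 5. The labels do not tie equal numbers together, and 2 of the 3 ND libraries and 3 of the 3 MCDHFD libraries deviated most like the library of their own number (correlations 0.0057 to 0.062).

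With the CD8 T cell identity genes held equal, 30 were higher and 0 lower, and the log2 fold change turned positive for Cpt1b (0.25), Acadvl (1.01), Acad10 (0.32), Acad11 (0.058), Hadha (0.83), Eci1 (0.89), Decr2 (0.71), Etfa (0.97), Crot (0.99), Acox3 (0.66), Acaa1a (0.22) and Acot13 (0.95); this follows from the common shift of that scaling. With the mitochondrial references held equal it turned negative for Slc25a20 (-0.044), Acad9 (-0.14) and Ehhadh (-0.045), and under quantile scaling for Acad9 (-0.073). Library quality weights turned Acad9 (-0.015) and Crot (0.0023). Leaving out a library turned the sign of Acadvl (-0.048 to 0.061), Acad9 (-0.040 to 0.065), Crot (-0.085 to 0.047) and Acot13 (-0.16 to 0.0084), none of which passed the test. Counting Crat, Eci2 and Acad11 as peroxisomal moved the distance between the compartment medians from -0.51 to -0.38. No ratio changed direction under another pseudocount or without any library.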

Other observations

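Further acyl-CoA enzymes outside the 35 genes, not split here by compartment, moved in both directions. Of 20 tested genes of branched-chain, propionate and related acyl-CoA metabolism, 3 rose and 7 fell (median log2 fold change -0.20), where 30.3% of all tested genes were higher and 28.1% lower. Pccb, a subunit of propionyl-CoA carboxylase (0.59), and the CoA hydrolase Nudt19 (0.57) rose, and Nudt7, a related hydrolase (-0.59), fell. With the mitochondrial references held equal 2 were higher and 12 lower, beside 23.0% and 38.7% of all tested genes. With the CD8 T cell identity genes held equal 18 were higher and 1, Acad12, lower, beside 83.2% and 3.41%. Bdh1 (527 ± 16.1 to 297 ± 27.8 normalized counts, -0.83) and Oxct1 (1491 ± 248 to 740.2 ± 81.8, -1.001), enzymes that use ketone bodies, fell. Both were lower with the mitochondrial references held equal too, and with the CD8 T cell identity genes held equal Bdh1 (0.19) and Oxct1 (0.014) did not pass.

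Of the 26 genes of general mitochondrial content, 12 rose (46.2%, beside 30.3% of all tested genes) and 2 fell (7.69%, beside 28.1%), with a median log2 fold change of 0.17, among them Tomm40 (0.61), Vdac1 (0.54) and Hspa9 (0.52) higher and Tufm (-0.52) lower. The median of the 21 mitochondrial members was 0.35 under the deposited scaling and 0.19 with these 26 genes held equal.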
